A study of Mus musculus with 8 samples.

Results

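The comparison described here adds knockdown of Foxa2 and Cdx2 to knockdown of Nkx2-1 in mouse lung adenocarcinoma cells. It sets the 2 Tnonmet-shNkx2-1/Foxa2/Cdx2 libraries, called the triple knockdown below, against the 2 Tnonmet-shNkx2-1 libraries, across all genes of the deposited count table. These are 4 of the 8 libraries of the series, chosen by their titles. Polyadenylated RNA was sequenced as single-end 45-nt reads, and every line is Trp53-/- per the labels. Tnonmet cells, grown from a primary tumour without metastasis in DMEM with 10% serum, received shRNAs by retroviral and lentiviral infection. The triple knockdown carries shRNAs against Nkx2-1, Foxa2 and Cdx2, shNkx2-1 carries the one against Nkx2-1, and the 2 shControl libraries carry an shRNA against luciferase. The other 2 libraries, Tmet, come from a metastatic primary tumour and are not compared, but they enter the shared estimate of the spread and the filter on low counts. The duplicates are not stated to be separate cultures or infections, so p-values reflect only how far these libraries scatter, which may be technical.

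Nkx2-1 is the homeodomain factor that specifies lung epithelium. Foxa2 is a winged-helix pioneer factor that opens chromatin at genes of the foregut and its derivatives, among them lung, stomach and liver, and it shares many sites with Foxa1. Cdx2 is the caudal-type homeodomain factor that specifies intestinal epithelium and activates brush-border genes together with Hnf4a. The comparison asks which transcripts differ when cells that already carry the Nkx2-1 shRNA also carry shRNAs against Foxa2 and Cdx2.

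Total estimated counts were 16830021 and 15953814 in the triple knockdown libraries, 16203758 and 17599131 in the shNkx2-1 libraries and 14496995 and 18918538 in the shControl libraries. Levels are given as counts-per-million (CPM) scaled with TMM factors, which ran from 0.943 to 1.035. A count of 0 in a library allows a level of up to 0.151 to 0.2 CPM, which is 3 counts, and such floors and all intervals below cover counting error only. The log2 level of the 2 libraries of a group correlated across genes with an r of 0.994 in the triple knockdown and 0.993 in shNkx2-1. In the groups that enter only the shared spread, r was 0.995 in shControl and 0.977 in Tmet, the lowest of all groups. Of the markers tied to the lung adenocarcinoma label, epithelial Krt8, Krt18 and Cdh1 were high in the 4 libraries, with Krt8 at 4590 and 5100 CPM in the triple knockdown and 3480 and 3100 CPM in shNkx2-1. The surfactant genes Sftpc and Sftpb were not, at 0 counts in all 4 libraries and at 0.507 to 0.897 CPM. Other alveolar genes were detected in part. Of 15 listed type 2 genes, 7 passed the filter on low counts and 5 had 0 counts in all 4 libraries. Of 10 listed type 1 genes, 8 passed it and 2 had 0 counts. A list sum can rest on few genes. Cav1 alone, a type 1 member, had 452 and 544 CPM in the triple knockdown and 199 and 180 CPM in shNkx2-1. The alveolar type 1 list summed to 1910 and 1800 CPM in the triple knockdown and 1570 and 1350 CPM in shNkx2-1. The alveolar type 2 list summed to 385 and 417 CPM in the triple knockdown and 388 and 453 CPM in shNkx2-1. The epithelial marker Epcam did not exceed 0.676 CPM.

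Of 23224 genes, 13318 passed the filter on low counts and were tested; without Tmet, 12727 did. At an adjusted p under 0.05 by edgeR's quasi-likelihood test, 2711 genes differed between the triple knockdown and shNkx2-1, which is 20.4% of those tested. Of these, 1235 were higher in the triple knockdown (9.27% of those tested) and 1476 were lower (11.1%). The counts of list members called below are to be read against these shares. Changes are given as log2 of the triple knockdown over shNkx2-1, with the standard error (SE) of the fit. Over all tested genes the median change was 0.00, with the 5th and 95th percentiles at -1.72 and 1.27. Past 2-fold, 559 genes were higher (4.2% of those tested) and 849 were lower (6.37%), and past 8-fold the counts were 127 and 233. In the same fit, 473 genes (3.55%) differed between shNkx2-1 and shControl and 3243 (24.4%) between the triple knockdown and shControl. These comparisons share libraries. The 2 libraries of the triple knockdown lay wholly above or wholly below those of shNkx2-1 for 9320 genes, 70% of those tested, so groups that do not overlap were common. Most genes named below passed the test, so groups lying apart adds no support for them. The count of 2711 depends on which libraries enter: leaving out a library of the pair compared gave 1466 and 1027 calls (without shNkx2-1 replicate 1 and replicate 2) and 1168 and 1024 calls (without triple knockdown replicate 1 and replicate 2). Leaving out a shControl library gave 1962 and 1958 calls, and leaving out a Tmet library gave 4994 and 4984.

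**Figure D1:**
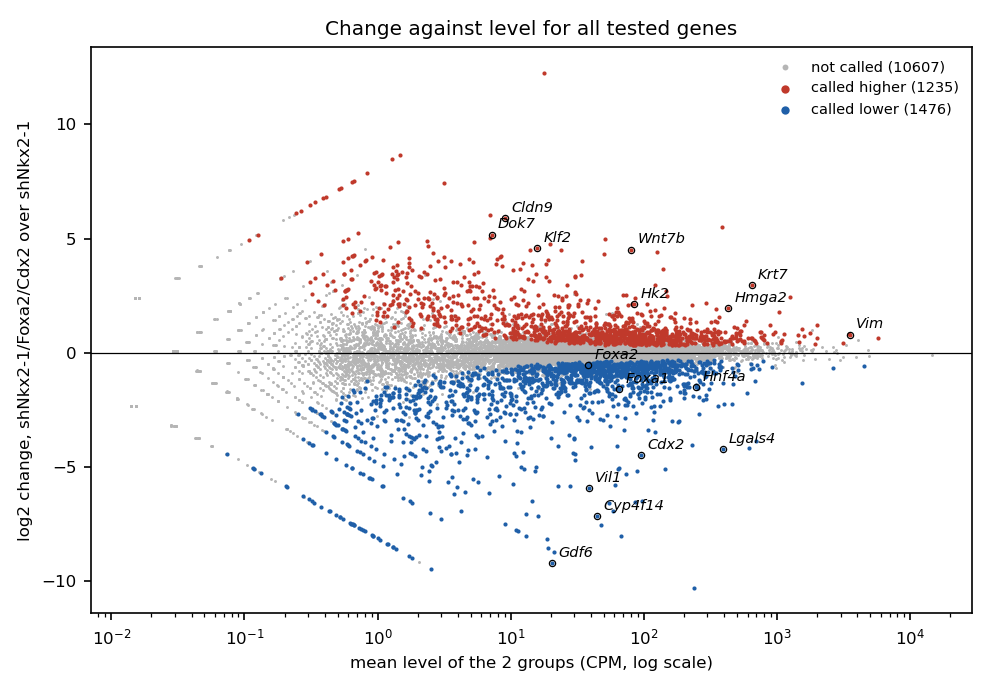
Change of each of the 13318 tested genes, as log2 of the triple knockdown over shNkx2-1 (vertical axis), against the mean level of both groups in CPM (horizontal axis, log scale). Red points are the 1235 genes called higher, blue points the 1476 called lower and grey points those not called; fitted changes on the outer diagonals belong to genes with 0 counts in 1 group and are no measure of size.

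Of the 3 targeted genes, Cdx2 and Foxa2 were lower in the triple knockdown than in shNkx2-1, and Nkx2-1 did not differ past the threshold. Cdx2 had 9.41 and 6.80 CPM in the triple knockdown, against 175 and 186 CPM in shNkx2-1 and 98.6 and 111 CPM in shControl. Both triple knockdown libraries lay far below the other 4 Tnonmet libraries, and Cdx2 fell by 4.48 on the log2 scale (SE 0.18, adjusted p = 6.93e-06). Foxa2 had 34.1 and 28.2 CPM in the triple knockdown, 49.2 and 41.6 CPM in shNkx2-1 and 56.8 and 55.1 CPM in shControl. Its groups did not overlap, and the fall was small, at 0.54 (-0.54 ± 0.15, SE, adjusted p = 0.0355). Without any 1 of the 6 Tnonmet libraries the Foxa2 call was lost (adjusted p as high as 0.239). Nkx2-1, targeted in both groups, had 38.1 and 34.0 CPM in the triple knockdown and 37.7 and 44.8 CPM in shNkx2-1, against 76.4 and 68.0 CPM in shControl. The triple knockdown and shNkx2-1 libraries overlapped, and the difference did not pass the test (log2 change -0.20 ± 0.15, adjusted p = 0.404).

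Among the endoderm regulators, 12 of 23 tested members fell, 3 rose and 8 did not pass the test. The median change of the list was -0.55, against 0.00 over all tested genes, and without 1 library at a time 7 to 13 fell and 0 to 4 rose. Foxa1, the partner of Foxa2 at many endodermal enhancers, had 33.9 and 31.1 CPM in the triple knockdown and 106 and 90.1 CPM in shNkx2-1. Foxa1 was not among the stated shRNA targets and fell by 1.59 (SE 0.13, adjusted p = 1.97e-04). Hnf4a, the nuclear receptor that maintains liver and gut epithelium, had 138 and 118 CPM in the triple knockdown against 381 and 346 CPM in shNkx2-1 and fell by 1.51 (SE 0.14, adjusted p = 4.45e-04). Its gut paralogue Hnf4g had 0.904 and 1.03 CPM in the triple knockdown and 21.5 and 18.9 CPM in shNkx2-1, and fell by 4.38 (SE 0.40, adjusted p = 3.89e-04). The abundant Onecut2, a liver and gut homeobox factor, had 148 and 132 CPM in the triple knockdown against 559 and 770 CPM in shNkx2-1 (log2 change -2.24 ± 0.19, adjusted p = 2.60e-04). The groups of these 4 genes did not overlap, as was so for 70% of all tested genes.

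Nuclear receptors of bile acid and drug sensing were also lower. Nr1i2, the pregnane X receptor, had 0.121 and 0.192 CPM in the triple knockdown against 4.01 and 2.93 CPM in shNkx2-1 (-4.42 ± 0.46, adjusted p = 0.00119). Nr1h4, the bile acid receptor FXR, had 4.40 and 3.40 CPM in the triple knockdown against 23.4 and 18.9 CPM in shNkx2-1 (-2.43 ± 0.47, adjusted p = 0.0089). The Nr1h4 call was lost without either triple knockdown library (adjusted p as high as 0.0836). Pdx1, the duodenal and pancreatic homeobox factor, fell by 0.80 and Gata6, a zinc-finger factor of endoderm, fell by 0.54; both calls were lost without any 1 of the 6 Tnonmet libraries (adjusted p as high as 0.203 for Pdx1 and 0.134 for Gata6). The intestinal homeobox gene Isx held 1 count over the triple knockdown and 42 over shNkx2-1, a 39.5-fold difference with a 95% exact counting interval of 6.72 to 1600. Its call was also lost without any 1 of the 6 Tnonmet libraries (adjusted p as high as 0.216) and by limma-voom (adjusted p = 0.055).

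Gata4, Gata5, Sox2, Klf5 and Elf3 did not pass the test, with changes between -0.55 and 0.57. Elf3, the highest of these, passed with only the 4 libraries compared (adjusted p = 0.0174), with the replicate block (adjusted p = 0.0412) and without either Tmet library. Sox2 was below 0.5 CPM in the 4 libraries compared and at 109 and 121 CPM in Tmet. Cdx1, the paralogue of Cdx2, had 0 counts in all 4 libraries. Of the members that rose, Sox9, a factor of progenitor cells in lung and gut, had 46.8 and 42.7 CPM in the triple knockdown against 20.4 and 13.9 CPM in shNkx2-1. It rose by 1.39 (SE 0.33, adjusted p = 0.0232), a call lost without any 1 of the 4 libraries compared (adjusted p as high as 0.177). Creb3l3, a membrane-bound factor of liver and intestine, had 4.34 and 4.74 CPM in the triple knockdown against 0.851 and 0.676 CPM in shNkx2-1 (2.56 ± 0.60, adjusted p = 0.0202). Foxa3, the third Foxa paralogue, had 20 counts over the triple knockdown against 2 over shNkx2-1, a 10.6-fold difference with an interval of 2.58 to 93.8. The calls of Creb3l3 and Foxa3 were lost without any 1 of the 6 Tnonmet libraries (adjusted p as high as 0.168 and 0.171), and that of Foxa3 also by DESeq2 (adjusted p = 0.178).

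**Figure D2:**
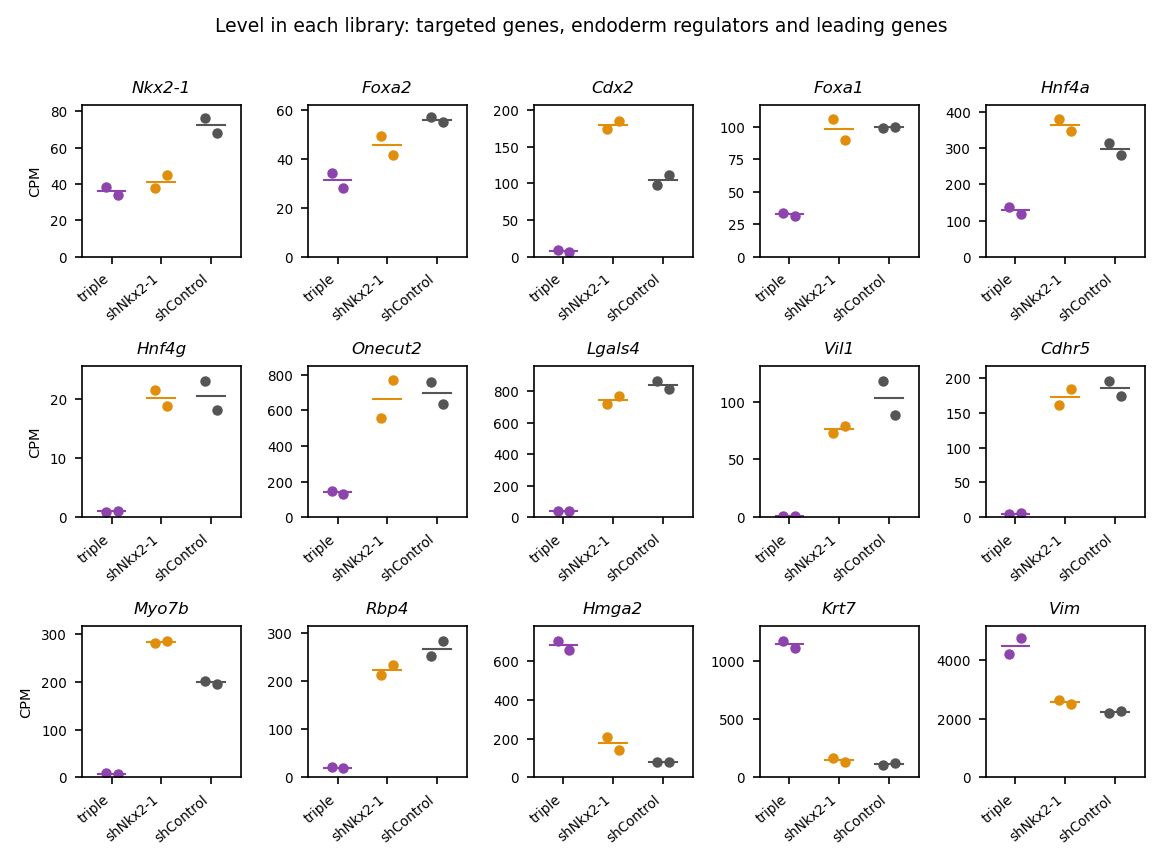
Level in CPM (vertical axes, from 0) of 15 genes in the 2 libraries of the triple knockdown, shNkx2-1 and shControl, with points for libraries and bars for group means. Cdx2 lies at 9.41 and 6.80 CPM in the triple knockdown, below the other 4 libraries plotted, while Nkx2-1 overlaps between the triple knockdown and shNkx2-1; Hmga2, Krt7 and Vim are highest in the triple knockdown.

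Intestinal epithelial genes were lower almost throughout. Of 26 tested members of that list, which includes Cdx2 itself, 20 fell, 1 rose and 5 did not pass the test, with a median change of -2.43. Without 1 library at a time, 12 to 21 members fell. Lgals4, a galectin of enterocyte lipid rafts, had 40.6 and 38.4 CPM in the triple knockdown against 716 and 771 CPM in shNkx2-1 (-4.23 ± 0.12, adjusted p = 2.16e-06). Part of its reads may be shared with Lgals6, a near-identical copy. The brush border, the carpet of microvilli on absorptive cells, was represented by its actin bundler, its adhesion protein and its motor. Villin (Vil1), the bundler, had 1.39 and 1.09 CPM in the triple knockdown against 72.7 and 79.3 CPM in shNkx2-1 (-5.93 ± 0.23, adjusted p = 6.20e-06). The microvillar protocadherin Cdhr5 had 4.28 and 5.32 CPM in the triple knockdown against 162 and 185 CPM in shNkx2-1 (-5.18 ± 0.17, adjusted p = 3.02e-06). The myosin Myo7b, which tethers such protocadherins, had 8.68 and 7.76 CPM in the triple knockdown against 280 and 284 CPM in shNkx2-1 and had the smallest p of all genes that fell (-5.10 ± 0.12, adjusted p = 1.68e-06). In all of these genes the highest triple knockdown library was far below the lowest shNkx2-1 library.

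Harmonin (Ush1c), the scaffold between Myo7b and the protocadherins, and the iron oxidase Heph both had 0 counts in the triple knockdown and 45 counts in shNkx2-1, and were at least 14.1-fold lower. The Ush1c call was lost without shNkx2-1 replicate 2, with adjusted p = 0.0513. Muc13, a membrane mucin, had 0.241 and 0.192 CPM in the triple knockdown against 36.7 and 27.2 CPM in shNkx2-1 (-7.15 ± 0.39, adjusted p = 3.40e-05). Lgals2, another gut galectin, had 3.38 and 3.91 CPM in the triple knockdown against 118 and 130 CPM in shNkx2-1 (-5.09 ± 0.18, adjusted p = 4.62e-06). Cdh17, the intestinal cadherin, kept a higher level than these, with 113 and 141 CPM in the triple knockdown against 490 and 420 CPM in shNkx2-1 (-1.84 ± 0.24, adjusted p = 0.00174). Fabp1, the fatty acid binding protein of liver and gut, had 1 count over the triple knockdown and 51 over shNkx2-1, a 48-fold difference with an interval of 8.23 to 1930. The Fabp1 call was lost without shNkx2-1 replicate 1 or either triple knockdown library (adjusted p as high as 0.0826). The member that rose was Mttp, which loads lipid onto apolipoprotein B, at 14.3 and 14.7 CPM in the triple knockdown against 8.93 and 6.82 CPM in shNkx2-1 (0.89 ± 0.21, adjusted p = 0.0228). That call was lost without shNkx2-1 replicate 2 or either triple knockdown library (adjusted p as high as 0.176). Krt20, a keratin of gut surface cells, did not differ past the threshold, at 4.64 and 6.15 CPM in the triple knockdown against 9.60 and 8.62 CPM in shNkx2-1 (-0.76 ± 0.65, adjusted p = 0.456), and was at 176 and 147 CPM in shControl. The Tmet libraries, at 36.3 and 7.21 CPM, differed widely for Krt20, and without Tmet it passed as lower at the same change (-0.76 ± 0.18, adjusted p = 0.01), as it did with only the 4 libraries compared (adjusted p = 0.0244) and without either Tmet library.

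The 250 bases upstream of the RefSeq start (GRCm38.p6) were at hand for 17 of the 20 intestinal genes that fell. They were searched on both strands for TTTATG, a core string of the sites Cdx2 is known to bind. It was present for 4 of the 17 genes (23.5%), against 12.4% of all 27025 genes with a promoter in the RefSeq table. The wider set, which adds TTTACG and also its variant TTTATT, was present for 6 of the 17 (35.3%), against 30.8% of all. The forkhead string TGTTTAC or its variant form TGTTTGC was present for 4 of the 17 (23.5%), against 8.22% of all; the first of these can overlap TTTACG by its last bases. Only 79.1% of the tested genes matched a promoter, so shares across tested genes cover only those. As a description of the 10536 that matched, TTTATG was present for 7.26% of genes called lower, 6.44% of those called higher and 7.36% of all. The wider set was present for 22.6% of genes called lower, 20.6% of those called higher and 21.9% of all. A forkhead string was present for 6.57% of genes called lower, 5.51% of those called higher and 6.45% of all. The shares of the 17 rest on 4 to 6 promoters of a list written with earlier results of these data known. The 4 promoters with TTTATG are shown because they belong to the intestinal genes that fell and hold that string, 5′ to 3′ on the strand of the gene, with TTTATG, or CATAAA for the other strand, in capitals.
Lgals2 promoter, minus strand, chr15:78855530-78855779: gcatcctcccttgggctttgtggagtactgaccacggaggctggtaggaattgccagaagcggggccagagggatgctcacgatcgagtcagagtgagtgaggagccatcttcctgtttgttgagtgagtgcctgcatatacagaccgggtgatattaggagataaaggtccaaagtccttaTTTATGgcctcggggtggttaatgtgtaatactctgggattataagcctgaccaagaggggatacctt
Fabp1 promoter, plus strand, chr6:71199629-71199878: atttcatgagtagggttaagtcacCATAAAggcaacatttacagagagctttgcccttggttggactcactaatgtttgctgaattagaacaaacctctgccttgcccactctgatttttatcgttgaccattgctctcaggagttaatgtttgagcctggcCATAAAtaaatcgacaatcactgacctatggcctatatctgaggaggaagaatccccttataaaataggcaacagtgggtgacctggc
Muc13 promoter, plus strand, chr16:33793787-33794036: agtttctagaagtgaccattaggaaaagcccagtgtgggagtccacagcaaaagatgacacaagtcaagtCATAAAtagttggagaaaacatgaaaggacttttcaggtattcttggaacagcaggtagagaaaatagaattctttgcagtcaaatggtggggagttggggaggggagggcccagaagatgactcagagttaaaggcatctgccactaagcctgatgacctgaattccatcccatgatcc
Cdhr5 promoter, minus strand, chr7:141276787-141277036: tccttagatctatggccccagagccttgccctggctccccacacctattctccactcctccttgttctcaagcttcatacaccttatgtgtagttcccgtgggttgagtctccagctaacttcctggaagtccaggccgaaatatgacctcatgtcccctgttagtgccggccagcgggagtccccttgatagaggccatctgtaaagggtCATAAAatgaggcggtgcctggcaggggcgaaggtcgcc
The string begins 68 bases before the start of Lgals2, 226 and 88 bases before that of Fabp1, 180 bases before that of Muc13 and 39 bases before that of Cdhr5. A match is a description of these letters, and binding was not measured.

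Stomach and mucous genes were lower in part, with 7 of 16 tested members down, 2 up and a median change of -0.94; without 1 library at a time 5 to 8 fell and 0 to 3 rose. Dmbt1, a secreted scavenger protein of mucosal surfaces, had 2.11 and 1.60 CPM in the triple knockdown against 148 and 193 CPM in shNkx2-1 (-6.51 ± 0.23, adjusted p = 4.62e-06). The gastric annexin Anxa10 had 12.4 and 10.8 CPM in the triple knockdown against 80.1 and 95.1 CPM in shNkx2-1 (-2.92 ± 0.21, adjusted p = 1.19e-04). Vsig1, a junction protein of gastric epithelium, had 4.28 and 3.01 CPM in the triple knockdown against 23.5 and 20.3 CPM in shNkx2-1 (-2.58 ± 0.25, adjusted p = 4.70e-04). None of these 3 overlapped between the groups, as was so for 70% of all tested genes. St3gal4, a sialyltransferase, fell by 1.27 (SE 0.15, adjusted p = 0.00136), with 76.4 and 80.6 CPM in the triple knockdown against 176 and 202 CPM in shNkx2-1.

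Liver and plasma protein genes had the lowest median of the lists with more than 10 tested members, at -3.06, with 9 of 17 tested members down and 1 up, the 1 rise lost without shNkx2-1 replicate 1 or either triple knockdown library. C4bp, an inhibitor of complement, had 0.301 and 0.0641 CPM in the triple knockdown against 21.9 and 30.0 CPM in shNkx2-1 (-7.07 ± 0.47, adjusted p = 9.05e-05), with -8.51 without triple knockdown replicate 1 and -6.39 without replicate 2. Rbp4, the plasma carrier of retinol, had 21.8 and 18.8 CPM in the triple knockdown against 213 and 233 CPM in shNkx2-1 (-3.45 ± 0.24, adjusted p = 1.09e-04). Apob, the scaffold of lipoproteins that Mttp loads, had 5.85 and 2.18 CPM in the triple knockdown against 54.9 and 56.2 CPM in shNkx2-1 (-3.78 ± 0.48, adjusted p = 0.00172), with -4.67 without triple knockdown replicate 1. Apob and Mttp therefore had opposite directions. Complement factor B (Cfb) fell by 3.58 (SE 0.34, adjusted p = 4.41e-04), with 3.26 and 5.13 CPM in the triple knockdown against 35.1 and 65.2 CPM in shNkx2-1. The urea cycle gene Otc had 1 count in the triple knockdown against 169 in shNkx2-1, a 159-fold difference with an interval of 28.2 to 6320. The iron carrier transferrin (Trf), with 0 counts in the triple knockdown against 45 in shNkx2-1, was at least 14.1-fold lower.

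Genes of drug and toxin metabolism fell in 21 of 33 tested members and rose in 1, with a median change of -1.81; without 1 library at a time 16 to 24 fell and 0 to 2 rose. Cyp4f14, a cytochrome that hydroxylates fatty acids and eicosanoids, had 0.724 and 0.513 CPM in the triple knockdown against 69.7 and 107 CPM in shNkx2-1 (-7.14 ± 0.34, adjusted p = 1.67e-05). Cyp2c65, a gut cytochrome with close Cyp2c relatives that may share reads, had 1.09 and 0.833 CPM in the triple knockdown against 103 and 130 CPM in shNkx2-1 (-6.91 ± 0.21, adjusted p = 2.52e-06). Sult1a1, a sulfotransferase of phenols, had 2 counts in the triple knockdown against 286 in shNkx2-1, a 135-fold difference with an interval of 36.9 to 1120. These 3 enzymes were close to undetected in the triple knockdown. More abundant members also fell. The efflux pump Abcb1a had 17.1 and 15.4 CPM in the triple knockdown against 115 and 105 CPM in shNkx2-1 (-2.76 ± 0.36, adjusted p = 0.00189), the glutathione transferase Gsta4 had 66.2 and 54.3 CPM in the triple knockdown against 221 and 288 CPM in shNkx2-1 (-2.08 ± 0.20, adjusted p = 4.99e-04), and the conjugate pump Abcc3 had 108 and 110 CPM in the triple knockdown against 308 and 314 CPM in shNkx2-1 (-1.51 ± 0.11, adjusted p = 1.15e-04). Aldh1a1, which makes retinoic acid, had 28 and 17 CPM in the triple knockdown against 124 and 86.4 CPM in shNkx2-1 (-2.22 ± 0.29, adjusted p = 0.00197).

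**Figure D3:**
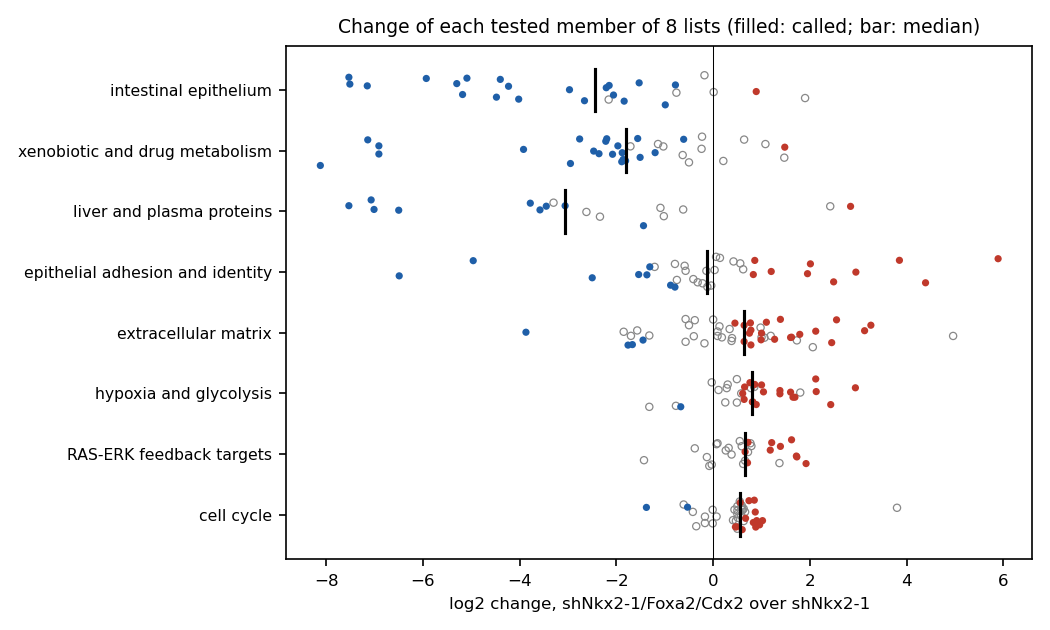
Log2 change of the triple knockdown over shNkx2-1 (horizontal axis) for each tested member of 8 lists (rows), with filled points for members called higher (red) or lower (blue), open points for members not called and black bars for list medians. The intestinal, drug metabolism and liver rows lie mostly left of 0, with medians of -2.43, -1.81 and -3.06, and the matrix and hypoxia rows have medians of 0.64 and 0.81.

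Genes of fatty acid oxidation and ketone bodies fell in 6 of 27 tested members and rose in 1, with a median change of -0.44, and without 1 library at a time 4 to 13 fell and 1 to 2 rose. Both subunits of the mitochondrial trifunctional protein fell. Hadhb had 104 and 102 CPM in the triple knockdown against 217 and 234 CPM in shNkx2-1 (-1.13 ± 0.16, adjusted p = 0.00243), and Hadha had 181 and 195 CPM in the triple knockdown against 295 and 305 CPM in shNkx2-1 (-0.68 ± 0.09, adjusted p = 0.00247). Cpt1a, which admits fatty acids to mitochondria, fell by 0.90 (SE 0.13, adjusted p = 0.00331), with 228 and 237 CPM in the triple knockdown against 437 and 432 CPM in shNkx2-1. The member that rose was Plin2, a lipid droplet coat protein, at 418 and 407 CPM in the triple knockdown against 249 and 225 CPM in shNkx2-1 (0.80 ± 0.10, adjusted p = 0.0015). In cholesterol and fatty acid synthesis, 1 of 29 tested members rose and none fell, with a median of 0.18. That member was Sqle, squalene epoxidase (0.44 ± 0.11, adjusted p = 0.0244). The Sqle call was lost without any 1 of the 6 Tnonmet libraries (adjusted p as high as 0.163). Without 1 library at a time the list held up to 9 rises and up to 3 falls, so its count is not stable.

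Other genes among the 12 largest falls were of varied kinds. Gdf6, a BMP-family ligand, held 2 counts over the triple knockdown and 1402 over shNkx2-1, a 660-fold difference with an interval of 182 to 5450. Cst9, a cystatin, held 3 counts in the triple knockdown against 1443 in shNkx2-1 (453-fold, interval 155 to 2200), and Ceacam18, an adhesion-family member, 3 in the triple knockdown against 894 in shNkx2-1 (280-fold, interval 95.6 to 1360). Reps2, an endocytic adaptor, held 3 counts in the triple knockdown against 754 in shNkx2-1 (236-fold, interval 80.6 to 1150), and the phosphate transporter gene Slc17a4 3 in the triple knockdown against 625 in shNkx2-1 (196-fold, interval 66.8 to 953). All of these were close to silent in both triple knockdown libraries. The neuropeptide gene Vip, with 1 count in the triple knockdown against 206 in shNkx2-1, differed 194-fold with an interval of 34.4 to 7690. Clrn3, a membrane protein, had 0.0603 and 0.192 CPM in the triple knockdown against 40.2 and 34.6 CPM in shNkx2-1 (-8.15 ± 0.40, adjusted p = 2.07e-05), with -7.55 without triple knockdown replicate 1 and -9.12 without replicate 2. The fatty acid hydroxylase Cyp4a12a had 0 counts in the triple knockdown against 173 in shNkx2-1 and was at least 54.3-fold lower, though near-identical Cyp4a copies make its level uncertain.

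The largest rises included a claudin, muscle-associated genes and prolactin-family genes. Cldn9, a tight junction claudin, had 15.1 and 20.5 CPM in the triple knockdown against 0.243 and 0.338 CPM in shNkx2-1 (5.89 ± 0.40, adjusted p = 1.04e-04). Dok7, the activator of the muscle kinase MuSK, had 13.4 and 14.6 CPM in the triple knockdown against 0.547 and 0.225 CPM in shNkx2-1 (5.17 ± 0.40, adjusted p = 3.64e-04). Dysferlin (Dysf), a membrane repair protein of muscle, had 14.7 and 12.6 CPM in the triple knockdown against 0.668 and 0.169 CPM in shNkx2-1 (5.03 ± 0.46, adjusted p = 3.78e-04). The change depended on which shNkx2-1 library was left out, at 6.27 without its replicate 1 and 4.33 without its replicate 2 for Dysf, and 5.91 without its replicate 1 for Dok7. These genes were near their detection floor in shNkx2-1. Mtap1a, a microtubule-associated protein, held 201 counts over the triple knockdown against 1 over shNkx2-1, a 214-fold difference with an interval of 37.9 to 8480. Slc4a11, a membrane transporter of the bicarbonate transporter family, had 38.1 and 37.7 CPM in the triple knockdown against 1.46 and 1.35 CPM in shNkx2-1 (4.75 ± 0.35, adjusted p = 1.42e-04). Atg9b, an autophagy membrane protein, had 85.2 and 113 CPM in the triple knockdown against 3.46 and 2.87 CPM in shNkx2-1 (4.97 ± 0.83, adjusted p = 0.00528), a call lost without shNkx2-1 replicate 2, with adjusted p = 0.0636. The prolactin-family gene Prl2c2 had 775 and 721 CPM in the triple knockdown against 21.0 and 12.3 CPM in shNkx2-1 (5.49 ± 0.85, adjusted p = 0.00393). Prl2c3 had 1148 counts in the triple knockdown against 0 in shNkx2-1 and was at least 407-fold higher. The copies of this family are nearly identical, so the split between them is uncertain, and the calls were lost without shNkx2-1 replicate 2 for Prl2c2 (adjusted p = 0.0505) and without any 1 of the 4 libraries compared for Prl2c3 (adjusted p as high as 0.135).

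Epithelial genes split between the directions. Of 35 tested members of the adhesion and identity list, 10 rose and 8 fell, with a median change of -0.12, and without 1 library at a time 6 to 12 rose and 5 to 11 fell. E-cadherin (Cdh1) had 682 and 754 CPM in the triple knockdown against 749 and 919 CPM in shNkx2-1, groups that overlapped, and did not pass the test (-0.22 ± 0.12, adjusted p = 0.259). Krt7, a keratin of simple ducts, had 1170 and 1110 CPM in the triple knockdown against 166 and 129 CPM in shNkx2-1 (2.95 ± 0.15, adjusted p = 2.12e-05). The Krt7 groups were far apart. The desmosomal plakophilin Pkp1 had 21.2 and 33.0 CPM in the triple knockdown against 2.13 and 1.63 CPM in shNkx2-1 (3.85 ± 0.38, adjusted p = 5.12e-04), and Pkp3 had 5.49 and 4.55 CPM in the triple knockdown against 0.182 and 0.282 CPM in shNkx2-1 (4.39 ± 0.49, adjusted p = 8.99e-04). Krt18 had 2670 and 2850 CPM in the triple knockdown against 1320 and 1090 CPM in shNkx2-1 (1.2 ± 0.30, adjusted p = 0.0253), a call lost without any 1 of the 6 Tnonmet libraries (adjusted p as high as 0.179). In the other direction, Grhl3, a grainyhead factor of epithelial barriers, had 0.241 and 0.385 CPM in the triple knockdown against 24.2 and 32.8 CPM in shNkx2-1 (-6.49 ± 0.49, adjusted p = 1.61e-04).

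Mesenchymal genes did not move as a block. Of 25 tested members, 8 rose and 3 fell, with a median change of 0.43, or 0.33 with a gene at 0 counts in 1 group set to its bound, and 3 to 10 rose and 1 to 3 fell without 1 library at a time. Vimentin (Vim), the mesenchymal intermediate filament, had 4200 and 4740 CPM in the triple knockdown against 2650 and 2490 CPM in shNkx2-1 (0.80 ± 0.11, adjusted p = 0.00251). Fibronectin (Fn1) had 1180 CPM in both triple knockdown libraries against 597 and 737 CPM in shNkx2-1 (0.82 ± 0.13, adjusted p = 0.00398). Its receptor subunit Itga5 rose by 0.87 (SE 0.12, adjusted p = 0.0026), at 101 and 94.9 CPM in the triple knockdown against 57.5 and 50.1 CPM in shNkx2-1. The groups of these 3 genes did not overlap, as was so for 70% of all tested genes, and each was under 2-fold. Twist2, a basic helix-loop-helix factor of mesenchyme, went the other way, at 17.9 and 19.6 CPM in the triple knockdown against 36.4 and 51.3 CPM in shNkx2-1 (-1.23 ± 0.19, adjusted p = 0.00395). Zeb1, a repressor of epithelial genes, did not pass the test (0.33 ± 0.18, adjusted p = 0.239), and Snai2 rose by 0.75 (SE 0.19, adjusted p = 0.0278), a call lost without any 1 of the 6 Tnonmet libraries (adjusted p as high as 0.189).

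Oncofetal regulators rose in 3 of 12 tested members and fell in 1, with a median of -0.35, or -0.10 with genes at 0 counts set to their bounds; the fall was lost without shNkx2-1 replicate 2 or triple knockdown replicate 2. Hmga2, an embryonic chromatin protein known as a target of Nkx2-1 repression in lung tumours, had 703 and 658 CPM in the triple knockdown, 207 and 143 CPM in shNkx2-1 and 78.6 and 80.3 CPM in shControl. The 3 groups were apart, and Hmga2 rose by 1.96 over shNkx2-1 (SE 0.18, adjusted p = 3.42e-04) and by 3.10 over shControl (adjusted p = 5.29e-05). The shNkx2-1 libraries were themselves 1.14 above shControl (adjusted p = 0.0176). Its relative Hmga1 had 42.3 and 41.8 CPM in the triple knockdown against 12.3 and 14.6 CPM in shNkx2-1 (1.64 ± 0.16, adjusted p = 5.35e-04). Lin28b, the embryonic RNA-binding protein that blocks let-7, had 0.422 and 0.256 CPM in the triple knockdown against 1.70 and 2.25 CPM in shNkx2-1 (-2.51 ± 0.42, adjusted p = 0.00542). The Lin28b call was lost without shNkx2-1 replicate 2 or triple knockdown replicate 2 (adjusted p as high as 0.0632).

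Extracellular matrix genes were higher in 20 of 49 tested members and lower in 4, with a median change of 0.64, and 9 to 25 rose and 2 to 6 fell without 1 library at a time. Col8a1, a short-chain collagen, had 24.4 and 28.5 CPM in the triple knockdown against 3.46 and 2.59 CPM in shNkx2-1 (3.13 ± 0.19, adjusted p = 5.05e-05). The fibrillar collagen Col5a1 had 169 and 172 CPM in the triple knockdown against 64.2 and 46.6 CPM in shNkx2-1 (1.62 ± 0.15, adjusted p = 4.35e-04), and the anchoring fibril collagen Col7a1 had 44.7 and 27.8 CPM in the triple knockdown against 6.81 and 5.58 CPM in shNkx2-1 (2.55 ± 0.25, adjusted p = 4.95e-04). P4ha1, which hydroxylates collagen prolines, rose with them, at 103 and 99.2 CPM in the triple knockdown against 31.5 and 35 CPM in shNkx2-1 (1.60 ± 0.14, adjusted p = 2.76e-04). The abundant fibulin Fbln2 had 1540 and 1670 CPM in the triple knockdown against 482 and 452 CPM in shNkx2-1 (1.79 ± 0.19, adjusted p = 7.67e-04). Osteopontin (Spp1), a secreted integrin ligand, had 1620 and 2580 CPM in the triple knockdown, 268 and 498 CPM in shNkx2-1 and 1060 and 1440 CPM in shControl. It rose by 2.45 over shNkx2-1 (SE 0.44, adjusted p = 0.00682), lost without shNkx2-1 replicate 1 with adjusted p = 0.0528, and did not differ from shControl past the threshold (0.74, adjusted p = 0.239). Thbs1, thrombospondin, was the largest fall in this list, with 98.5 and 77.6 CPM in the triple knockdown against 809 and 1770 CPM in shNkx2-1 (-3.87 ± 0.45, adjusted p = 0.00115), with -3.20 without shNkx2-1 replicate 2. The laminin chain Lamb2 fell by 1.45 (SE 0.13, adjusted p = 3.78e-04), with 105 and 107 CPM in the triple knockdown against 257 and 325 CPM in shNkx2-1.

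Among integrins and focal adhesion genes, 6 of 28 tested members rose and 4 fell, with a median of 0.25; 2 to 12 rose without 1 library at a time. The collagen receptor subunit Itga1 had 2.89 and 4.74 CPM in the triple knockdown against 99.5 and 151 CPM in shNkx2-1 (-5.04 ± 0.32, adjusted p = 7.70e-05). Itga7, a laminin receptor subunit, had 4.22 and 4.68 CPM in the triple knockdown against 29.8 and 31.3 CPM in shNkx2-1 (-2.78 ± 0.15, adjusted p = 3.40e-05), and the integrin linker Tln2 had 45.6 and 48.2 CPM in the triple knockdown against 128 and 136 CPM in shNkx2-1 (-1.49 ± 0.13, adjusted p = 3.44e-04). In the invadopodia and matrix proteolysis list, 6 of 36 tested members rose and 5 fell, with a median of 0.07. In either direction 30.6% of the list was called, against 20.4% of all tested genes. Without 1 library at a time 4 to 12 rose and 1 to 8 fell. Adam8, a membrane protease, had 52.4 and 53.8 CPM in the triple knockdown against 11.4 and 6.70 CPM in shNkx2-1 (2.56 ± 0.26, adjusted p = 5.52e-04). The lysosomal protease Ctsl had 523 and 533 CPM in the triple knockdown against 277 and 280 CPM in shNkx2-1 (0.92 ± 0.11, adjusted p = 0.00121). Mmp15, a membrane-type metalloproteinase, fell, at 1.02 and 0.385 CPM in the triple knockdown against 8.26 and 7.89 CPM in shNkx2-1 (-3.49 ± 0.39, adjusted p = 9.63e-04), with -4.37 without triple knockdown replicate 1. Sh3pxd2a, the invadopodia scaffold Tks5, had 238 and 274 CPM in the triple knockdown against 176 and 203 CPM in shNkx2-1, which did not pass the test (0.44 ± 0.14, adjusted p = 0.0642). Sh3pxd2a passed as higher by DESeq2 (adjusted p = 0.0362), with the replicate block (adjusted p = 0.0254), with only the 4 libraries compared (adjusted p = 0.0165), without Tmet (adjusted p = 0.011) and without either Tmet library, and its adjusted p ran up to 0.323 without 1 library at a time.

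Of the lists with at least 15 tested members, hypoxia and glycolysis had the largest share of rises, 19 of 33, with 1 fall and a median change of 0.81. Between 8 and 22 rose and 0 to 2 fell without 1 library at a time. Hk2, the inducible hexokinase, had 150 and 125 CPM in the triple knockdown against 33.0 and 30.3 CPM in shNkx2-1 (2.12 ± 0.15, adjusted p = 1.34e-04). Lactate dehydrogenase A (Ldha) had 1990 and 2150 CPM in the triple knockdown against 986 and 1020 CPM in shNkx2-1 (1.04 ± 0.17, adjusted p = 0.00526), and the lactate exporter Slc16a3 had 8.50 and 10.8 CPM in the triple knockdown against 0.790 and 1.69 CPM in shNkx2-1 (2.94 ± 0.39, adjusted p = 0.00199), with 3.60 without shNkx2-1 replicate 2. The enzymes at the entry and the exit of glycolysis and the exporter were higher in both triple knockdown libraries than in either shNkx2-1 library. Gapdh, often used as a constant gene, had 6880 and 7110 CPM in the triple knockdown against 4740 and 4240 CPM in shNkx2-1 (0.64 ± 0.10, adjusted p = 0.00483). Hif1a, the oxygen-regulated factor of this list, rose by 1.00 at the level of mRNA (SE 0.15, adjusted p = 0.00373), with 331 and 340 CPM in the triple knockdown against 187 and 149 CPM in shNkx2-1. Vegfa, an angiogenic growth factor, had 139 and 150 CPM in the triple knockdown against 49.6 and 61.5 CPM in shNkx2-1 (1.38 ± 0.26, adjusted p = 0.00829), lost without shNkx2-1 replicate 1 or triple knockdown replicate 2 (adjusted p as high as 0.0729). Bnip3 and Pdk1, which limit mitochondrial mass and pyruvate entry, rose by 2.13 (3.11 without shNkx2-1 replicate 2) and 1.69, calls lost without any 1 of the 6 Tnonmet libraries (adjusted p as high as 0.205 and 0.172). In both genes shNkx2-1 replicate 2, at 45.4 and 40.5 CPM, was well above replicate 1, at 15.4 and 21.3 CPM. No source used here gives culture density or oxygen, and their part in these values was not tested.

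**Figure D4:**
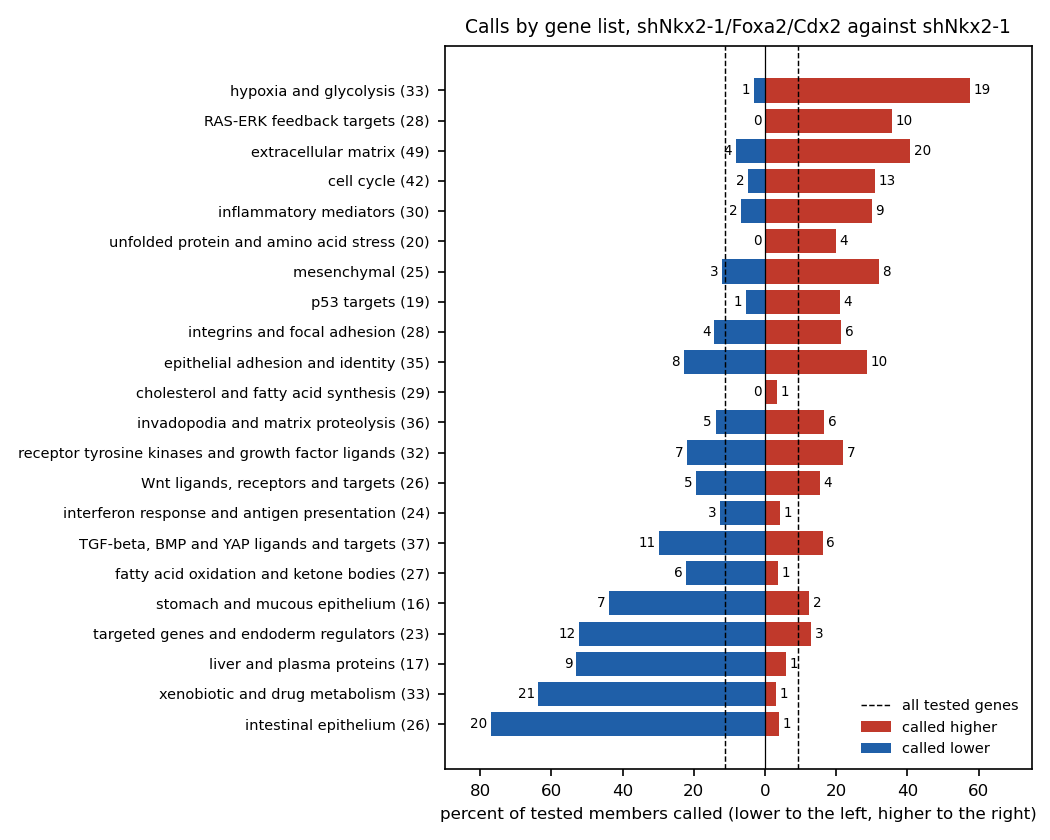
Percent of tested members called lower (blue, to the left) and higher (red, to the right) in the triple knockdown against shNkx2-1, for the 22 lists with at least 15 tested members, the number tested in parentheses and the number called beside each bar. Dashed lines mark all tested genes at 11.1% lower and 9.27% higher; the intestinal list has 20 of 26 members called lower and the hypoxia and glycolysis list 19 of 33 called higher.

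Targets of RAS-ERK signalling, the kinase cascade downstream of growth factor receptors, rose in 10 of 28 tested members and fell in none, with a median of 0.66; without 1 library at a time 3 to 19 rose and 0 to 1 fell. Dusp5, an ERK phosphatase, had 36.6 and 34.5 CPM in the triple knockdown against 12.8 and 8.79 CPM in shNkx2-1 (1.72 ± 0.23, adjusted p = 0.00197). Etv4, an ETS factor, had 63.0 and 76.2 CPM in the triple knockdown against 30.7 and 29.5 CPM in shNkx2-1 (1.21 ± 0.17, adjusted p = 0.00257). The EGF receptor ligands Hbegf and Tgfa rose by 1.62 and 1.18 (adjusted p = 0.00574 and 0.00657). Hbegf was lost without shNkx2-1 replicate 2 (adjusted p = 0.0538), and Tgfa without shNkx2-1 replicate 2 or triple knockdown replicate 2 (adjusted p as high as 0.0699). Among receptor tyrosine kinases and growth factors, 7 of 32 tested members rose and 7 fell, with a median of 0.24; without 1 library at a time 4 to 8 rose and 2 to 9 fell. The ligand Pdgfb had 46.8 and 41.6 CPM in the triple knockdown against 11.5 and 9.47 CPM in shNkx2-1 (2.08 ± 0.26, adjusted p = 0.00152). Fgf1 had 22.9 and 32.1 CPM in the triple knockdown against 124 and 153 CPM in shNkx2-1 (-2.33 ± 0.18, adjusted p = 1.78e-04), and the receptor Erbb2 had 86.6 and 89.2 CPM in the triple knockdown against 143 and 148 CPM in shNkx2-1 (-0.73 ± 0.10, adjusted p = 0.00193). Igfbp4, a carrier of insulin-like growth factors, had 830 and 860 CPM in the triple knockdown against 327 and 315 CPM in shNkx2-1 (1.40 ± 0.20, adjusted p = 0.00276).

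Genes of the Wnt list differed in direction. Of 26 tested members of the list, 4 rose and 5 fell, with a median of -0.09 (0.00 with genes at 0 counts set to bounds), and 2 to 5 rose and 3 to 6 fell without 1 library at a time. Wnt7b, a ligand of lung development, had 144 and 162 CPM in the triple knockdown against 7.84 and 5.52 CPM in shNkx2-1 (4.52 ± 0.50, adjusted p = 8.49e-04), and its paralogue Wnt7a had 103 and 89.2 CPM in the triple knockdown against 5.47 and 4.11 CPM in shNkx2-1 (4.32 ± 0.42, adjusted p = 4.70e-04). The receptor Fzd5 had 61.0 and 63.4 CPM in the triple knockdown against 163 and 143 CPM in shNkx2-1 (-1.30 ± 0.19, adjusted p = 0.00282), and the co-receptor Lrp6 had 132 and 133 CPM in the triple knockdown against 214 and 222 CPM in shNkx2-1 (-0.72 ± 0.09, adjusted p = 0.00178). These are the 4 members of smallest p in the list, and the other ligands and receptors enter only its counts and median here.

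In the TGF-beta, BMP and YAP list 6 of 37 tested members rose and 11 fell, with a median of -0.03 (0.00 at bounds); without 1 library at a time 2 to 11 rose and 2 to 13 fell. BMP ligands and BMP target genes were among those that fell. Bmp2 had 0.663 and 0.385 CPM in the triple knockdown against 5.17 and 8.96 CPM in shNkx2-1 (-3.73 ± 0.51, adjusted p = 0.00222). Id3, an inhibitor of helix-loop-helix factors, had 33.3 and 35.3 CPM in the triple knockdown against 175 and 235 CPM in shNkx2-1 (-2.58 ± 0.44, adjusted p = 0.00587), and its relative Id1 had 44.0 and 35.8 CPM in the triple knockdown against 128 and 151 CPM in shNkx2-1 (-1.81 ± 0.40, adjusted p = 0.0155). Smad6, the BMP feedback inhibitor, had 5.25 and 6.67 CPM in the triple knockdown against 18.7 and 20.3 CPM in shNkx2-1 (-1.71 ± 0.29, adjusted p = 0.00566). All 4 were below shNkx2-1 in both libraries. Calls were lost without either triple knockdown library for Id3 (adjusted p as high as 0.0561), without any 1 of the 4 libraries compared for Id1 (up to 0.121) and without triple knockdown replicate 1 for Smad6 (0.0586). Members that rose included Inhba, the activin A subunit, with 40.3 and 41.2 CPM in the triple knockdown against 7.96 and 7.27 CPM in shNkx2-1 (2.42 ± 0.26, adjusted p = 7.70e-04), and the YAP target Ankrd1, with 316 and 284 CPM in the triple knockdown against 106 and 101 CPM in shNkx2-1 (1.54 ± 0.11, adjusted p = 1.32e-04).

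Cell cycle genes rose in 13 of 42 tested members and fell in 2, with a median of 0.56, or 0.53 at bounds. This count was unstable, from 3 to 31 rises and 1 to 4 falls without 1 library at a time. The kinetochore proteins Cenpf and Cenpe rose by 1.02 and 0.85 (adjusted p = 0.00151 and 0.00238). Cenpf had 166 and 174 CPM in the triple knockdown against 88.9 and 78.1 CPM in shNkx2-1, and Top2a, the topoisomerase of dividing cells, had 458 and 460 CPM in the triple knockdown against 284 and 232 CPM in shNkx2-1 (0.83 ± 0.14, adjusted p = 0.0048). The rises were under or near 2-fold. Cyclin D1 (Ccnd1) rose by 0.96 (adjusted p = 0.00894), lost without shNkx2-1 replicate 1 or triple knockdown replicate 2 (adjusted p as high as 0.0777), while cyclin D2 (Ccnd2) fell by 1.38 (SE 0.18, adjusted p = 0.00192), with 278 and 244 CPM in the triple knockdown against 686 and 673 CPM in shNkx2-1. Of 19 tested p53 targets 4 rose and 1 fell, with a median of 0.27, and 2 to 6 rose and 0 to 3 fell without 1 library at a time. The labels give the lines as Trp53-/-, yet Trp53 itself had 4.10 and 3.46 CPM in the triple knockdown against 6.26 and 4.73 CPM in shNkx2-1 (-0.54 ± 0.25, adjusted p = 0.167), and a gene-level count cannot show which part is deleted. The cell cycle inhibitor Cdkn1a had 27.7 and 31.0 CPM in the triple knockdown against 15.1 and 16.4 CPM in shNkx2-1 (0.90 ± 0.15, adjusted p = 0.00542), lost without triple knockdown replicate 2 (adjusted p = 0.0548). Of 20 tested genes of unfolded protein and amino acid stress 4 rose, with a median of 0.55, and 0 to 13 rose and 0 to 1 fell without 1 library at a time. They were Atf4, Slc7a5, Psat1 and Phgdh, of the amino acid branch, with changes of 0.50 to 0.85; the Atf4 call was lost without any 1 of the 4 libraries compared (adjusted p as high as 0.0916), and the other 3 without any 1 of the 6 Tnonmet libraries other than shNkx2-1 replicate 1 (up to 0.143 for Psat1, 0.174 for Slc7a5 and 0.239 for Phgdh).

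Inflammatory mediators rose in 9 of 30 tested members and fell in 2, with a median of 0.16; 6 to 10 rose and 0 to 6 fell without 1 library at a time. Ptgs2, the inducible cyclooxygenase, had 257 and 251 CPM in the triple knockdown against 58.5 and 33.6 CPM in shNkx2-1 (2.47 ± 0.28, adjusted p = 0.00101). The cytokine gene Lif had 94.2 and 104 CPM in the triple knockdown against 32.2 and 25.4 CPM in shNkx2-1 (1.78 ± 0.20, adjusted p = 9.46e-04), and the neutrophil chemokine gene Cxcl1 had 17.2 and 15.1 CPM in the triple knockdown against 5.96 and 5.41 CPM in shNkx2-1 (1.51 ± 0.19, adjusted p = 0.00157). The groups of these 3 genes did not overlap, as was so for 70% of all tested genes. Interferon and antigen presentation genes were near the background, with 1 of 24 tested members up, 3 down and a median of -0.15; 0 to 2 rose and 0 to 7 fell without 1 library at a time. The largest change there was Oasl1, an antiviral gene, at 3.14 and 3.40 CPM in the triple knockdown against 0.182 and 0.169 CPM in shNkx2-1 (4.16 ± 0.76, adjusted p = 0.00725), lost without either shNkx2-1 library (adjusted p as high as 0.0752).

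Hox genes were sparsely expressed, with 8 of 39 tested, 2 of them lower, none higher and a median of -3.54; 1 to 6 fell without 1 library at a time. Hoxa13, the hindgut member, had 0 counts in the triple knockdown against 50 in shNkx2-1 and was at least 15.7-fold lower. Hoxb9 had 2 counts in the triple knockdown against 57 in shNkx2-1, a 26.8-fold difference with an interval of 7.09 to 227, in a call lost without any 1 of the 6 Tnonmet libraries (adjusted p as high as 0.185).

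Genes of lung lineages did not move together. Among alveolar type 2 genes 1 of 7 tested members fell and none rose, with a median of 0.29, and up to 2 rose and 1 to 2 fell without 1 library at a time. The one was Cebpa, a basic leucine zipper factor of lung and liver, with 0.724 and 0.897 CPM in the triple knockdown against 7.60 and 13.4 CPM in shNkx2-1 (-3.68 ± 0.38, adjusted p = 6.07e-04). Sftpb, the surfactant protein, did not pass the test (0.61 ± 0.42, adjusted p = 0.341). Among alveolar type 1 genes 2 of 8 rose and 1 fell, with a median of 0.09. Emp2, a membrane protein, had 204 and 270 CPM in the triple knockdown against 75.4 and 84.2 CPM in shNkx2-1 (1.57 ± 0.16, adjusted p = 5.50e-04), and caveolin (Cav1) had 452 and 544 CPM in the triple knockdown against 199 and 180 CPM in shNkx2-1 (1.39 ± 0.17, adjusted p = 0.00135). The guidance gene Sema3a had 8.68 and 7.24 CPM in the triple knockdown against 54.9 and 55.9 CPM in shNkx2-1 (-2.80 ± 0.15, adjusted p = 3.40e-05). Of 3 tested airway and basal cell genes, Krt14 rose, with 3.98 and 5.71 CPM in the triple knockdown against 0.729 and 0.338 CPM in shNkx2-1, and Trp63 fell, with 0.181 and 0.321 CPM in the triple knockdown against 1.76 and 4.56 CPM in shNkx2-1. The Krt14 change was 3.18, 3.81 without shNkx2-1 replicate 1, and that of Trp63 was -3.63, -2.79 without shNkx2-1 replicate 2. The Krt14 call was lost without shNkx2-1 replicate 2 (adjusted p = 0.0639), and that of Trp63 without it or either triple knockdown library (up to 0.0796).

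Markers of cell types that a culture could hold beside tumour cells were scarce. Of 15 leukocyte markers 1 was tested, Cd68, which rose by 1.48 (adjusted p = 0.024), lost without any 1 of the 4 libraries compared (adjusted p as high as 0.16). The summed level of the leukocyte list was 4.10 and 4.55 CPM in the triple knockdown and 2.13 and 1.86 CPM in shNkx2-1, and Ptprc, the pan-leukocyte marker, was at 0.128 CPM or less in each. The fibroblast list summed to 20.9 and 21.3 CPM in the triple knockdown against 10.6 and 8.79 CPM in shNkx2-1. Of its 6 tested members 1 rose, or 0 to 3 without 1 library at a time. Pdgfra, a receptor of fibroblasts, was that member, with 1.93 and 2.50 CPM in the triple knockdown against 0.425 and 0.338 CPM in shNkx2-1 (2.52 ± 0.41, adjusted p = 0.00493), lost without shNkx2-1 replicate 2 (adjusted p = 0.0637). None of 2 tested endothelial, 3 neuroendocrine and 5 sex-linked genes passed the test. The part of these markers in the other results was not tested. In these bulk libraries, fewer cells of a kind and less RNA per cell cannot be told apart.

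Some genes that differed between the triple knockdown and shNkx2-1 were nearer to shControl in the triple knockdown. The values are set side by side, and the comparisons share libraries. Klf4, a factor of gut differentiation, had 33.1 and 43.1 CPM in the triple knockdown, 113 and 140 CPM in shNkx2-1 and 65.0 and 60.4 CPM in shControl. It was below shNkx2-1 by 1.73 (SE 0.17, adjusted p = 5.01e-04) and below shControl by a log2 change of -0.72 (adjusted p = 0.0176), while shNkx2-1 was above shControl by 1.01 (adjusted p = 0.0217). Ccnd2, at 278 and 397 CPM in shControl, was above shControl in shNkx2-1 (1.01, adjusted p = 0.029), and the triple knockdown did not differ from shControl past the threshold (-0.37, adjusted p = 0.175). Krt23, an epithelial keratin, had 90.7 and 108 CPM in the triple knockdown, 22.9 and 28.6 CPM in shNkx2-1 and 90.7 and 96.0 CPM in shControl. Triple knockdown and shControl libraries overlapped for Krt23 (0.09, adjusted p = 0.686), and both lay above shNkx2-1, with log2 changes of 1.95 for the triple knockdown over shNkx2-1 (SE 0.15, adjusted p = 1.78e-04) and -1.86 for shNkx2-1 over shControl (adjusted p = 0.00333). Desmoplakin (Dsp) stood between, with 166 and 182 CPM in the triple knockdown, 85.4 and 111 CPM in shNkx2-1 and 250 and 269 CPM in shControl (0.83 ± 0.18 over shNkx2-1, adjusted p = 0.0163). The Dsp call was lost without shNkx2-1 replicate 1 or either triple knockdown library (adjusted p as high as 0.119).

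Klf2 and C4bp, like Klf4, lay beyond shControl in the triple knockdown, on the other side from shNkx2-1. Klf2, a Krüppel-like transcription factor, had 24.1 and 36.8 CPM in the triple knockdown, 1.46 and 1.07 CPM in shNkx2-1 and 4.13 and 4.75 CPM in shControl. It rose by 4.59 over shNkx2-1 (SE 0.30, adjusted p = 9.12e-05) and by 2.77 over shControl (adjusted p = 3.44e-04). C4bp did the opposite, higher in shNkx2-1 than in shControl by 3.0 (adjusted p = 0.00625), and lower in the triple knockdown than in shControl, with a log2 change of -4.07 (adjusted p = 0.00124). Fbln2 moved one way throughout, with 92.9 and 133 CPM in shControl, below both knockdown groups (log2 change of shNkx2-1 over shControl 2.04, adjusted p = 0.00456).

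**Figure D5:**
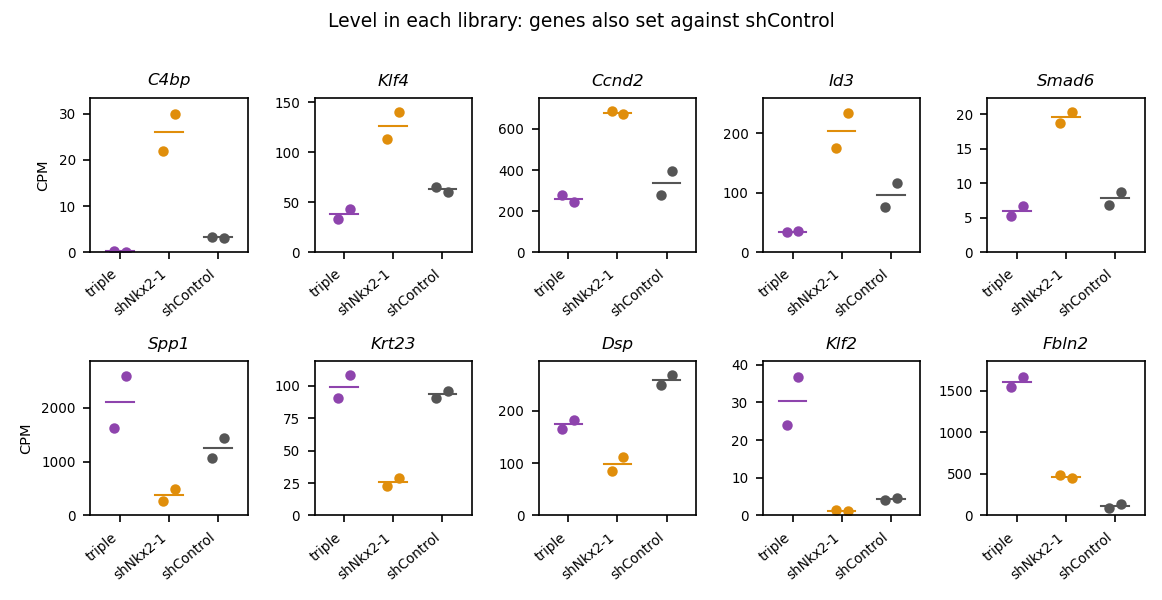
Level in CPM (vertical axes, from 0) of 10 genes in the 2 libraries of the triple knockdown, shNkx2-1 and shControl, with points for libraries and bars for group means. C4bp, Klf4, Ccnd2, Id3 and Smad6 are highest in shNkx2-1, Krt23 overlaps between the triple knockdown and shControl, both with a library at 90.7 CPM, and Klf2 and Fbln2 are highest in the triple knockdown.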

How the data were processed

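The authors deposited 1 table of estimated counts (expected counts, partly not whole) for 23224 genes and 8 libraries. The submitters' processing notes name RSEM 1.2.12, Bowtie 1.0.1 and the build mm9 without giving their roles. The strand setting, annotation and read filters were not given in the sources used here. RSEM-type estimates divide reads among genes that share sequence, so near-identical and overlapping genes are uncertain. Columns were matched to samples by their short names for the groups.

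Counts were rounded and analysed in R 4.3.3 with edgeR 4.0.16. Genes were kept by filterByExpr (minimum count 10, total 15). All 8 libraries shared 1 TMM-scaled quasi-likelihood fit without covariates (4 residual degrees of freedom), with two-sided tests, Benjamini-Hochberg adjustment over 13318 genes and a threshold of 0.05. The script was tested on simulated data. Genes with 0 counts in a group are bounded with a floor of 3 counts over the group; with 1 to 3 counts a 95% exact counting interval is given.

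The libraries compared, the 32 gene lists (902 genes) and the tests were chosen with earlier results of these data known, and no list was tested as a set. Named genes are the endoderm regulators and 6 further genes, the 12 largest rises and falls (adjusted p under 0.05, groups apart, at least 5 CPM, no predicted name), the 4 members of smallest p per list and the 5 genes of smallest p per direction; some are left out, and some items are not reported here. Chosen after their values were seen were Abcb1a, Aldh1a1, Apob, Bnip3, Ccnd1, Cdh17, Col7a1, Cpt1a, Dsp, Fabp1, Fbln2, Gapdh, Gsta4, Hbegf, Heph, Id1, Id3, Krt18, Krt20, Krt8, Ldha, Mttp, Pdk1, Pkp1, Pkp3, Sftpb, Smad6, Snai2, Tgfa, Thbs1, Trf, Ush1c, Vegfa and Zeb1. Promoters are RefSeq's, GRCm38.p6, matched by symbol. Alternatives were RLE factors, no filter, DESeq2 1.42.0, limma-voom (limma 3.58.1), a robust prior, fewer libraries, a replicate block and leaving out each library.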

Additional observations from a re-analysis of the deposited data

How the results depend on the processing

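The count of 2711 differing genes, 1235 higher and 1476 lower in the triple knockdown, was 2705 with RLE factors, 2817 without the filter, 2967 by DESeq2, 2702 by limma-voom and 2687 with a robust prior. With the replicate number as a block it was 2389 (1076 higher, 1313 lower), and 7 named genes no longer passed while 3 newly did. Replicate numbers name only 2 pairs, which the labels do not tie to a shared culture or day; deviations of same-numbered triple knockdown and shNkx2-1 libraries correlated at 0.33. With only the 4 libraries compared the count was 4518 (2182 higher, 2336 lower), and with the 6 Tnonmet libraries, without Tmet, 4958 (2451 higher, 2507 lower). Leaving out 1 library at a time gave 1024 to 4994 genes, 393 to 2474 higher and 616 to 2523 lower. The share of higher among all calls, 45.6%, was 38.3% without shNkx2-1 replicate 2. Of 172 named genes that passed the test, 113 passed under every alternative that gave a value and 59 did not pass under at least 1. The 1 reversal was Klf5, which did not pass the test, at 0.10, and ran from -0.09 (without shNkx2-1 replicate 2) to 0.32 without 1 library at a time. The cause of these shifts was not tested. With 2 libraries a group, spread between libraries limits what can be called, and levels near 0.2 CPM rest on about 3 counts.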
